A study of Rattus norvegicus with 8 samples.

Results

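The genes described here are the calcium-sensing receptor (Casr), the parathyroid hormone receptor (Pth1r) and 8 claudins of the nephron, Cldn14, Cldn16, Cldn19, Cldn10, Cldn2, Cldn4, Cldn7 and Cldn8. They were found by their single gene symbol in the annotation of the array's probe sets, where 10 of 10 were measured, each by 1 probe set, among 18166 genes in all. The samples were kidney tissue of male Wistar rats, 10 weeks old, read on Affymetrix whole-transcript arrays, with 4 arrays of medulla and 4 of cortex. All 8 carry one treatment label, ethylene glycol given daily and vitamin D given on alternate days for 1 week, so treatment could not be compared with its absence. Replicates are numbered within a region in the order of the labels, and an equal number does not pair a medulla with a cortex array. Whether the arrays came from different animals is not stated in the labels. The p-values therefore speak only of variation among these 8 arrays, some of which may be technical.

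In the nephron, calcium and magnesium cross the epithelium partly between the cells, through tight junctions whose selectivity is set by claudins. In the thick ascending limb, Cldn16 and Cldn19 form a path for divalent cations, Cldn10 one for sodium, and Cldn14, known from mice to act under the control of Casr, restrains the divalent path. Casr senses calcium in the blood and lowers calcium reabsorption in that segment, while Pth1r, the receptor of parathyroid hormone, lowers phosphate reabsorption in the proximal tubule and raises calcium reabsorption farther along. Ethylene glycol is metabolised to oxalate, and with vitamin D it is used to form calcium oxalate crystals in rat kidney.

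The median intensity differed little among arrays (34.1 to 34.7). The deposited values were already processed by RMA, so this is no separate check of the arrays. Precision is limited by having 4 arrays a region. The regions overlapped in the summed intensity of 7 proximal tubule markers, which ran from 5200 to 7872 on the medulla arrays and from 6877 to 8425 on the cortex arrays. How cleanly the regions were separated was not tested. The regions overlapped too in the summed intensity of 3 podocyte markers, from 415 to 726 in medulla and from 522 to 812 in cortex. They did not overlap in that of 5 urothelial markers, from 199 to 441 in medulla and from 162 to 185 in cortex. Of these 5, Psca alone had no overlap, at 5.36 to 7.53 log2 intensity in medulla and 4.72 to 5.14 in cortex. Replicate 4 of each region had the lowest sum of thick ascending limb markers and the highest of tubular injury markers. It also had the lowest sums of principal cell, intercalated cell, endothelial and urothelial markers in both regions. The proximal tubule, distal tubule and podocyte sums were lowest on replicate 4 in medulla only. On medulla replicate 4 the fibroblast and leukocyte sums were the highest of the medulla. The other arrays were not all alike. The summed intensity of 3 thick ascending limb markers outside the genes studied (Slc12a1, Umod and Kcnj1) was 2757 on medulla replicate 4, where the rest of the medulla gave 5086 to 6103. On cortex replicate 4 it was 2185, where the rest of the cortex gave 4876 to 6544. The summed intensity of 6 tubular injury markers was 11908 on medulla replicate 4, where the rest of the medulla gave 1407 to 6162. Medulla replicate 3 gave the 6162, well above medulla replicates 1 and 2, at 1867 and 1407. On cortex replicate 4 the injury sum was 10115, where the rest of the cortex gave 1291 to 1893. Results that rest on the replicate 4 arrays are given with and without them. In whole tissue, fewer cells of a type and less RNA per cell cannot be told apart.

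The stretches of DNA just before the start sites are shown for the genes that lay lower on both of these arrays by at least 2-fold (Casr and Cldn10) and for a pair that lay higher on both (Cldn7 and Cldn19). They are the 250 bases before the start in the RefSeq promoter table (rat build GRCr8), which held 8 of the 10 genes. The other two are Cldn2 and Cldn4. Capitals mark GC boxes (GGGCGG) and cAMP response elements (TGACGTCA), searched on both strands, and the TATA box (TATAAA) was searched as well.

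Casr, chr11:77740364-77740613, plus strand: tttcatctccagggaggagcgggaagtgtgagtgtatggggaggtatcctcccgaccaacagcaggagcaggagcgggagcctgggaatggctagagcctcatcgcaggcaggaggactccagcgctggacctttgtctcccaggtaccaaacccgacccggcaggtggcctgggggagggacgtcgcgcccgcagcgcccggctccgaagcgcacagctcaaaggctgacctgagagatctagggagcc

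Cldn10, chr15:102269608-102269857, plus strand: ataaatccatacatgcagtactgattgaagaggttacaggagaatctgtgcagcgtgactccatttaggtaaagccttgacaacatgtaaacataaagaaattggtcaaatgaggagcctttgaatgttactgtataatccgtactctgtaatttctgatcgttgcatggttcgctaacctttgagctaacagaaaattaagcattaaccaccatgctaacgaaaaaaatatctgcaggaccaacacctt

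Cldn7, chr10:55188420-55188669, plus strand: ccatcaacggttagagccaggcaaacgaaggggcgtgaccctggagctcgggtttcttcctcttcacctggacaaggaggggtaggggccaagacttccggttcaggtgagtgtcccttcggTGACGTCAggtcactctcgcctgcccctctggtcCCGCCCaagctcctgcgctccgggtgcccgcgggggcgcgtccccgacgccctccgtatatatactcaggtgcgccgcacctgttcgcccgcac

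Cldn19, chr5:138148325-138148574, plus strand: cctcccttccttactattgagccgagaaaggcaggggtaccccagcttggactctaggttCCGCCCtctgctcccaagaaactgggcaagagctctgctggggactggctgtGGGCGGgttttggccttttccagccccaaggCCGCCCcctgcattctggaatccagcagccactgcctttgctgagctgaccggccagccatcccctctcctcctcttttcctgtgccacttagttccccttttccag

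A GC box was found 3 times before Cldn19 and 1 time before Cldn7, and a cAMP response element 1 time before Cldn7. Neither was found before Casr or Cldn10. Before Pth1r, which also lay lower on both arrays, 7 GC boxes were found, some of them overlapping. No TATA box was found before any of the 8 genes. Of all 33469 stretches of this length in the table, 30.5% hold a GC box, 1.59% a cAMP response element and 12.9% a TATA box. The share of G and C was 65.6% before Cldn7, 60.0% before Cldn19, 64.8% before Casr and 38.0% before Cldn10, against a median of 51.2% over the table. The table held a single start for each of the 8 genes, and stretches before any other start were not searched. These are descriptions of the letters in the window.

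The first comparison asked whether the receptors and claudins differed between medulla and cortex. None was called by limma at an adjusted p under 0.05 with a 2-fold difference, and the share called over all genes was 0%. Before adjustment, limma gave 971 of all genes and 1 of these 10, Cldn8, a p under 0.05. The difference was positive, higher in medulla, for 6 of the 10 and negative for 4, with a median of 0.19 log2 units, beside -0.01 over all genes. limma's adjusted p for the 10 genes ran from 0.875 to 0.976. For 1 of the 10, Cldn8, all 4 medulla values lay above all 4 cortex values, beside 2.83% of all genes with the regions apart in either direction. Without both replicate 4 arrays, the 95% interval, which is not adjusted for the number of genes, left out 0 for 6 of the 10 (Cldn4, Cldn7, Cldn8 and Cldn19 above 0, Cldn16 and Cldn2 below), and limma still called 0 of all genes, with a smallest adjusted p of 0.892 and 918 genes at an unadjusted p under 0.05.

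**Figure D1:**
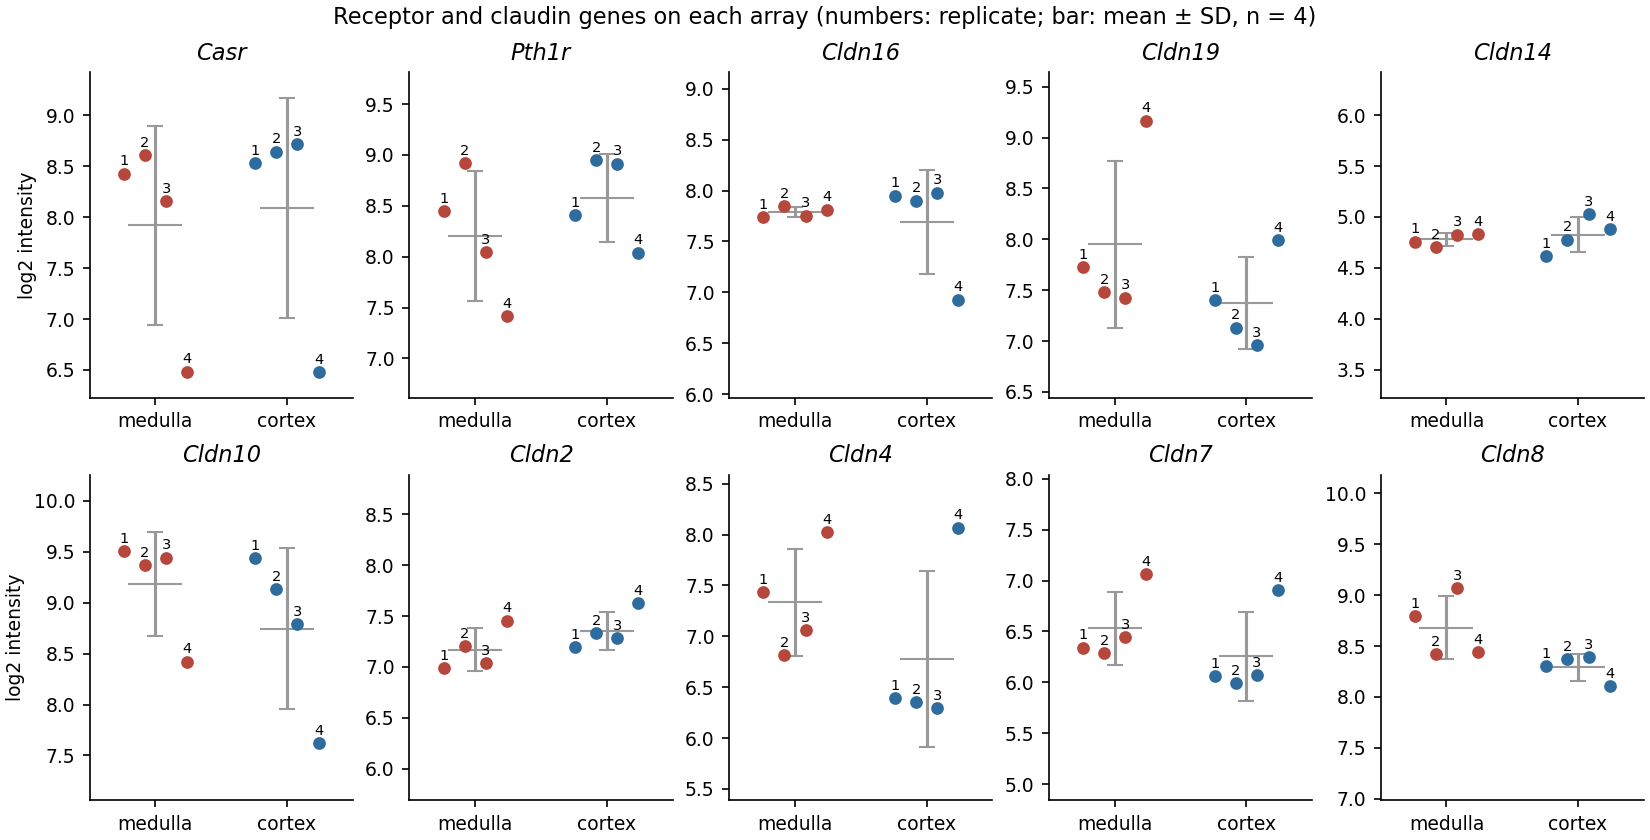
Log2 intensity of the 10 genes on each array, medulla on the left and cortex on the right of each panel, each panel spanning the same number of log2 units; numbers give the replicate, and grey bars the mean ± SD (n = 4). The replicate 4 arrays lie lowest for Casr, Pth1r and Cldn10 and highest for Cldn19, Cldn2, Cldn4 and Cldn7 in both regions, and Cldn16 lies low on cortex replicate 4 at 6.93.

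Of the receptors, Casr (probe set 17669313) measured 8.43, 8.61, 8.15 and 6.48 log2 intensity on medulla replicates 1 to 4, and 8.53, 8.64, 8.72 and 6.48 on cortex replicates 1 to 4. The 3 other arrays of each region lay close together and replicate 4 far below them, at the same level in both regions. The medulla mean was 7.92 ± 0.98 (SD, n = 4) and the cortex mean 8.09 ± 1.08 (SD, n = 4), a difference of -0.17 with a 95% interval from -1.68 to 1.34. Without both replicate 4 arrays, a choice made after the values were seen, the interval narrowed to -0.53 to 0.07. The sign was positive without medulla replicate 4, at 0.31, and without cortex replicate 2 or 3, at 0.011 and 0.035.

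Pth1r (probe set 17856014) measured 8.45, 8.92, 8.04 and 7.41 in medulla and 8.41, 8.95, 8.92 and 8.04 in cortex. Its values overlapped between regions, and replicate 4 was again the lowest array of both. The regional difference was -0.37 with a 95% interval from -1.18 to 0.43. It was -0.11 without medulla replicate 4, -0.61 without medulla replicate 2 and -0.29 without both replicate 4 arrays, with an interval from -0.92 to 0.34. Unlike those of Casr, the other medulla arrays of Pth1r were spread out as well, over 0.88 log2 units.

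Of the pore-forming claudins of the thick ascending limb, Cldn16 (probe set 17670011) measured 7.74, 7.84, 7.75 and 7.81 in medulla and 7.95, 7.90, 7.98 and 6.93 in cortex. All medulla arrays lay within 0.10 log2 units of each other, medulla replicate 4 among them, whereas cortex replicate 4 stood alone, 2.02-fold below the mean of the other cortex arrays. The difference was 0.10 with a 95% interval from -0.44 to 0.63. It was -0.16 without cortex replicate 4 and also without both replicate 4 arrays, where the interval was -0.28 to -0.05 and limma's adjusted p 0.892.

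Its partner Cldn19 (probe set 17801611) measured 7.73, 7.48, 7.43 and 9.16 in medulla and 7.40, 7.13, 6.96 and 7.99 in cortex. Here replicate 4 was the highest array of both regions. The difference was 0.58 with a 95% interval from -0.40 to 1.55, or 0.17 without medulla replicate 4. Without both replicate 4 arrays it was 0.38, with an interval from 0.05 to 0.71 and limma's adjusted p of 0.892. The log ratio of Cldn19 to Cldn16 within an array was 1.59 log2 units higher on medulla replicate 4 than the mean of the other medulla arrays, and 1.84 higher on cortex replicate 4 than the mean of the other cortex arrays. A ratio within an array shows unequal change only.

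Cldn14 (probe set 17668044), the claudin that restrains this pair, measured 4.76, 4.70, 4.83 and 4.83 in medulla and 4.62, 4.78, 5.03 and 4.88 in cortex. These values lay below the array median on 8 of 8 arrays, so a change at low signal may be understated. The difference was -0.05 with a 95% interval from -0.25 to 0.15, and it was 0.021 without cortex replicate 3. Its highest value, 5.03, was on cortex replicate 3, and its range was 1.09-fold in medulla and 1.33-fold in cortex.

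Cldn10 (probe set 17700678), whose isoforms serve sodium in the thick ascending limb and anions in the proximal tubule and were not told apart by its probe set value, measured 9.51, 9.37, 9.44 and 8.42 in medulla and 9.44, 9.13, 8.79 and 7.62 in cortex. Both replicate 4 arrays were the lowest, and the cortex arrays were spread more widely than the medulla arrays. The difference was 0.44 with a 95% interval from -0.54 to 1.42. Without cortex replicate 4 it was 0.066, and without medulla replicate 4 it was 0.69. With neither of them the interval was -0.07 to 0.72.

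Cldn2 (probe set 17874195), which forms a path for cations and water in the proximal tubule, measured 6.99, 7.20, 7.04 and 7.45 in medulla and 7.19, 7.33, 7.28 and 7.62 in cortex. It was highest on replicate 4 of both regions, by 1.30-fold over the other medulla arrays and 1.28-fold over the other cortex arrays. The difference was -0.19 with a 95% interval from -0.49 to 0.11. Leaving out cortex replicate 4 gave -0.10, and leaving out medulla replicate 4 gave -0.28. Without both replicate 4 arrays the interval was -0.37 to -0.02, and limma's adjusted p was 0.892.

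The claudins of the collecting duct were each higher in medulla by their means, and none was called. Cldn4 (probe set 17673030), which with Cldn8 forms a chloride path in mouse collecting duct cells, measured 7.44, 6.82, 7.06 and 8.02 in medulla and 6.39, 6.35, 6.29 and 8.07 in cortex. Leaving aside replicate 4, the 3 medulla values lay above the 3 cortex values. The difference was 0.56 with a 95% interval from -0.49 to 1.61, or 0.76 with an interval from 0.38 to 1.14 and limma's adjusted p of 0.892 without both replicate 4 arrays. Leaving out cortex replicate 4 alone gave 0.99, and leaving out medulla replicate 4 alone gave 0.33.

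Cldn7 (probe set 17647616), a claudin of the collecting duct and distal nephron, measured 6.34, 6.29, 6.44 and 7.06 in medulla and 6.06, 5.99, 6.07 and 6.91 in cortex. It shared the pattern of Cldn4 at a smaller size, with a difference of 0.28 and a 95% interval from -0.31 to 0.87. Without cortex replicate 4 the difference was 0.49, and without medulla replicate 4 it was 0.099. With neither of them it was 0.32, with an interval from 0.18 to 0.45 and limma's adjusted p of 0.892.

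Cldn8 (probe set 17667726) measured 8.79, 8.42, 9.07 and 8.44 in medulla and 8.30, 8.37, 8.39 and 8.10 in cortex. The lowest medulla array, at 8.42, lay just above the highest cortex array, at 8.39. The difference was 0.39 with a 95% interval from 0.04 to 0.74, and limma's adjusted p over all genes was 0.875. Its highest array was medulla replicate 3, and replicate 4 lay 1.25-fold below the mean of the other medulla arrays and 1.19-fold below that of the other cortex arrays. In cortex, replicate 4 was the lowest Cldn8 array, while in medulla replicate 2, at 8.42, lay below replicate 4, at 8.44. Cldn4 was highest on both replicate 4 arrays. There the log ratio of Cldn4 to Cldn8 was 1.24 log2 units above the other medulla arrays and 1.97 above the other cortex arrays.

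**Figure D2:**
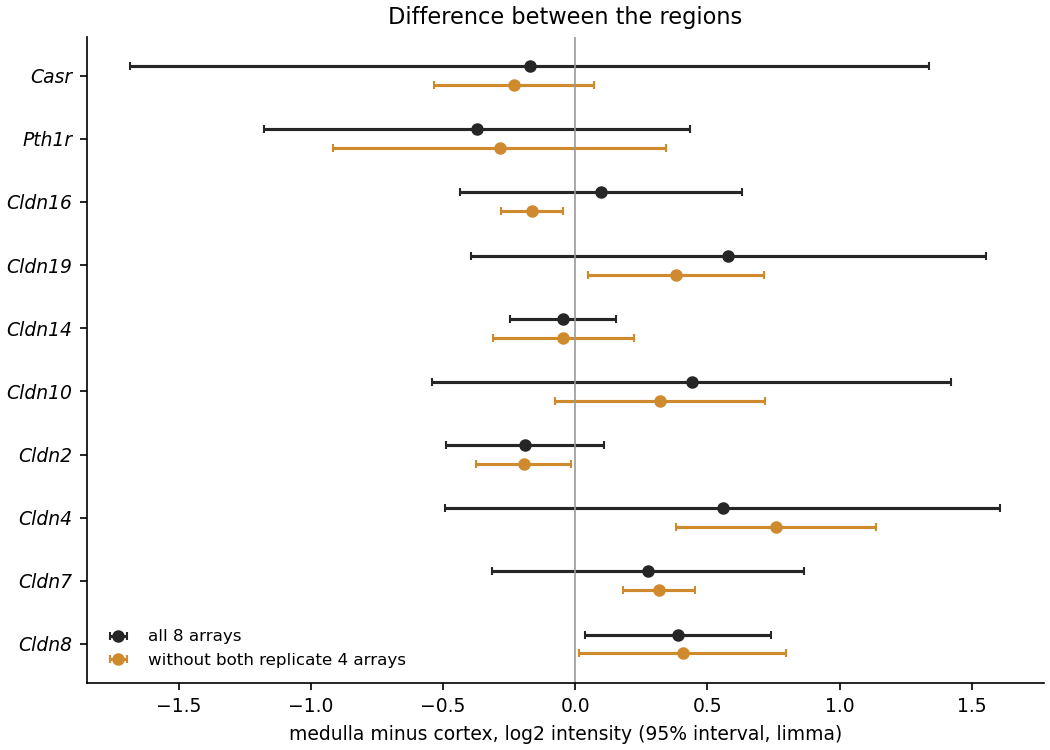
Difference of the medulla mean and the cortex mean (log2 intensity, medulla minus cortex) for each gene, with limma's 95% interval, for all 8 arrays in black and without both replicate 4 arrays in orange. With all arrays, the interval of Cldn8 alone leaves out 0, from 0.04 to 0.74; without both replicate 4 arrays 6 of the 10 intervals do, and limma's adjusted p over all genes is 0.875 or more in either fit.

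The second comparison follows the design text, which selects genes that vary at least 2-fold within cortex and within medulla. Its pairs of arrays are not named, so the range of each gene, its highest minus its lowest log2 value over the 4 arrays of a region, was used. A range of at least 2-fold was reached in medulla by 5 of the 10 genes (Casr, Pth1r, Cldn19, Cldn10 and Cldn4), beside 3.8% of all genes. In cortex it was reached by 5 (Casr, Cldn16, Cldn19, Cldn10 and Cldn4), beside 3.6% of all genes. In both regions it was reached by 4 (Casr, Cldn19, Cldn10 and Cldn4), beside 2.21% of all genes. The median range of the 10 genes was 0.93 log2 units in medulla and 0.98 in cortex, beside 0.25 and 0.21 over all genes. The shares and medians over all genes, here and below, include dim genes, where a change may be understated. By mean intensity Cldn14 stood at percentile 28.84 of all genes, and the other members from 69.05 (Cldn7) to 97.7 (Cldn10). The part of brightness in these counts was not tested.

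Casr had the widest range of the 10 genes in both regions, 4.38-fold in medulla and 4.72-fold in cortex. Cldn19 ranged over 3.34-fold in medulla and 2.05-fold in cortex, Cldn10 over 2.12-fold and 3.51-fold, and Cldn4 over 2.31-fold and 3.42-fold. Just inside the 2-fold limit in cortex were Cldn19 and Cldn16, at 2.05-fold and 2.07-fold. Just outside it were Cldn7 at 1.89-fold and Pth1r at 1.88-fold. Without medulla replicate 4, 0 of the 10 genes reached 2-fold in medulla, beside 0.936% of all genes. Without cortex replicate 4, 0 of the 10 reached it in cortex, beside 0.798% of all genes.

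**Figure D3:**
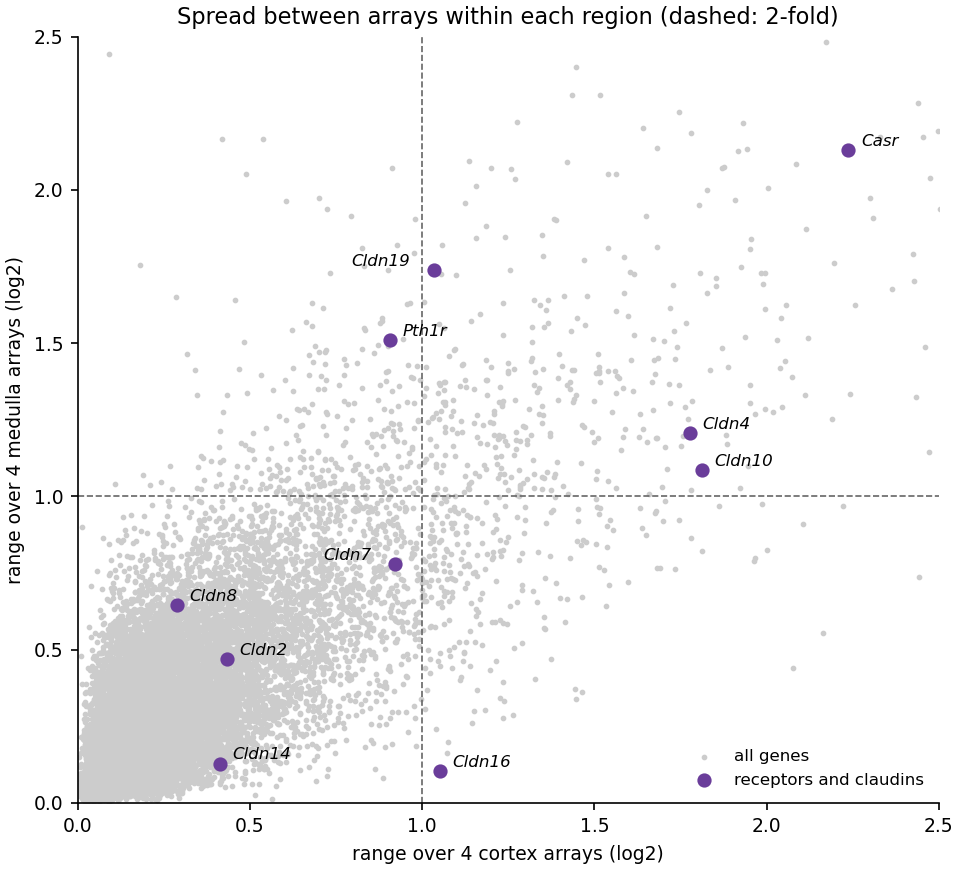
Range over the 4 medulla arrays (vertical axis, log2) against the range over the 4 cortex arrays (horizontal axis, log2) for all genes in grey and the 10 genes in purple, with dashed lines at 2-fold; 51 genes beyond 2.5 on either axis are not drawn. Casr, Cldn19, Cldn10 and Cldn4 lie past both lines, and Cldn16 lies past the cortex line only.

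In both regions, and on the same side, replicate 4 lay farthest from its companions for 7 of the 10 genes, beside 16.7% of all genes. They were Casr, Pth1r and Cldn10 on the low side and Cldn19, Cldn2, Cldn4 and Cldn7 on the high side. Casr lay 3.77-fold below the mean of the other arrays on medulla replicate 4 and 4.44-fold below on cortex replicate 4. Cldn10 lay 2.02-fold and 2.82-fold below, and Pth1r 2.08-fold and 1.64-fold below. Cldn19 lay 3.07-fold above on medulla replicate 4 and 1.78-fold above on cortex replicate 4, Cldn4 1.89-fold and 3.30-fold above, and Cldn7 1.63-fold and 1.83-fold above. By Dixon's criterion, a gap to the nearest array that, as a share of the whole range, is above Dixon's 95% critical value, 1 of the 10 genes had an isolated array in medulla (Cldn10), beside 6.45% of all genes. In cortex 4 had one (Casr, Cldn16, Cldn4 and Cldn7), beside 7.88% of all genes.

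**Figure D4:**
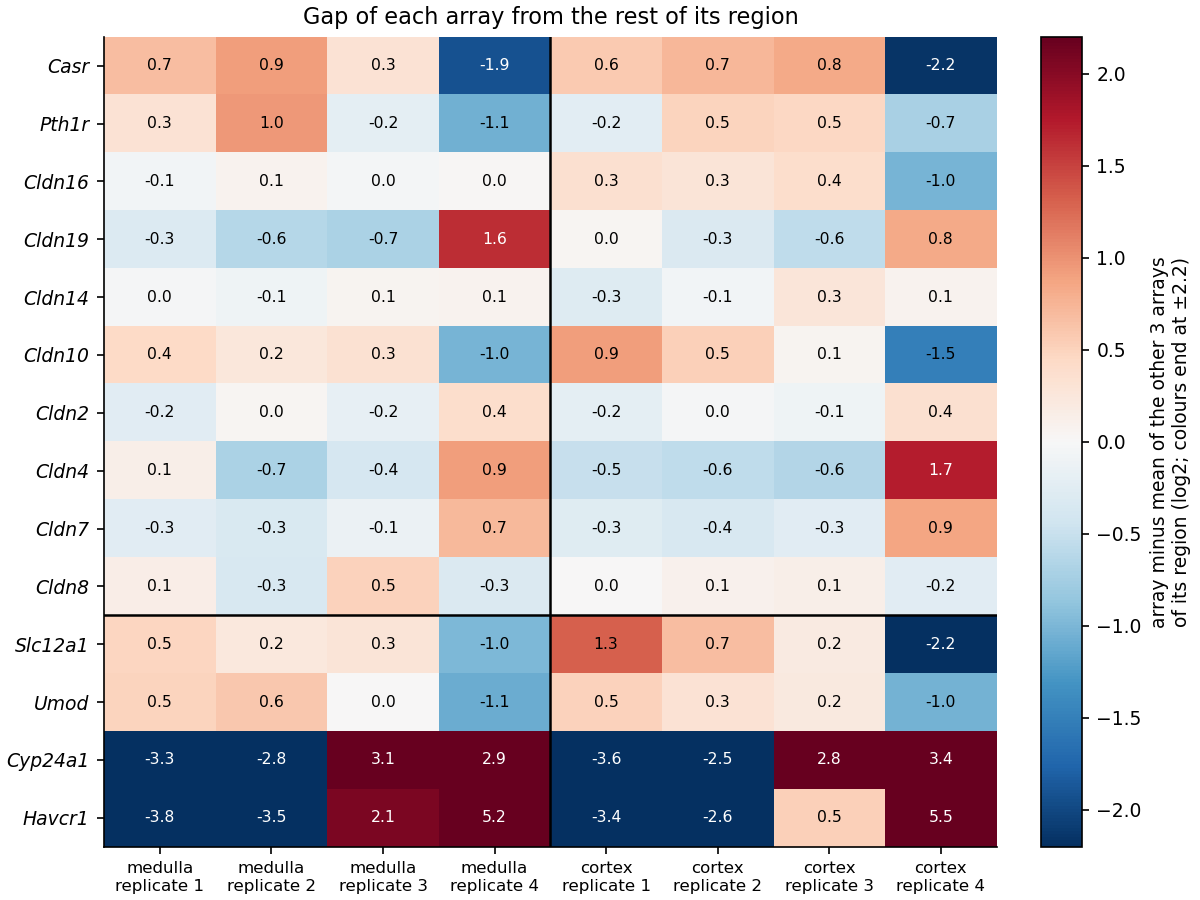
For each gene (rows) and array (columns), the log2 value minus the mean of the other 3 arrays of the same region, in red above and blue below 0; the colours end at 2.2 on either side, and numbers give the gaps. Casr stands at -1.9 on medulla replicate 4 and -2.2 on cortex replicate 4, while Cldn4 and Cldn19 are red there; the 4 genes under the line are set beside the 10 genes.

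Umod and Slc12a1 of the thick ascending limb were also lowest on the replicate 4 arrays, and their part in the low values of Casr was not tested. Umod, the uromodulin gene, had a gap between replicate 4 and the mean of the other arrays of -1.09 log2 units in medulla and -1.05 in cortex. Slc12a1, the sodium, potassium and chloride cotransporter, had gaps of -0.99 and -2.19 there, beside -1.92 and -2.15 for Casr. The log ratio of Casr to Umod was lower on replicate 4 of both regions, by gaps of -0.82 in medulla and -1.10 in cortex. That of Casr to Slc12a1 had a gap of -0.92 in medulla and 0.04 in cortex. The log ratio of Cldn16 to Slc12a1 had gaps of 1.03 and 1.18, so Cldn16 lay higher relative to Slc12a1 on both replicate 4 arrays. For Cldn10 to Slc12a1 the gaps were -0.02 in medulla and 0.70 in cortex. All 3 of the thick ascending limb markers were lowest on replicate 4 in both regions, as were Casr and Cldn10. Ptger3 and Cldn19 were highest there, and Cldn16 on medulla replicate 4 lay among the other medulla arrays. Over cortex replicates 1 to 3 the values of Slc12a1 were 11.26, 10.77 and 10.42, while those of Casr were 8.53, 8.64 and 8.72. On the same arrays Umod measured 11.89, 11.76 and 11.68, and Cldn10 measured 9.44, 9.13 and 8.79. Over medulla replicates 1 to 3 Slc12a1 measured 11.25, 11.07 and 11.10.

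The collecting duct gave another picture. Of 5 principal cell markers, 4 were lowest on medulla replicate 4 and 3 on cortex replicate 4, the arrays where Cldn4 and Cldn7 were highest. On replicate 4, Scnn1g lay among the other arrays of both regions, at 7.22 in medulla and 7.51 in cortex. So did Scnn1b in cortex, at 7.12. Cldn8 lay 1.25-fold and 1.19-fold below the mean of the other medulla and cortex arrays there. Aqp2 was the brightest of the 5 markers. The summed intensity of the 5 was 681 on medulla replicate 4, where the rest of the medulla gave 1263 to 2691. On cortex replicate 4 it was 713, where the rest of the cortex gave 1290 to 1442. Of 6 tubular injury markers, 5 were highest on replicate 4 in medulla and 5 in cortex. The part of either list in the claudin values was not tested. Urothelial cells also carry claudins, and the summed intensity of 5 urothelial markers was highest on medulla replicate 1, at 441, and 199 and 162 on medulla and cortex replicate 4. It was higher on each medulla array than on any cortex array, which held for Psca alone of the 5 markers. The means of Cldn4, Cldn7 and Cldn8 were also higher in medulla, and the part of urothelial cells in those means was not tested. Of 3 markers of parathyroid tissue, where Casr is abundant, Pth and Gcm2 lay at or below the array median on 8 of 8 arrays and Chga lay above it on 5 of 8. Their summed intensity was 80.6 to 83.4 in medulla and 82.2 to 84.3 in cortex.

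Cyp24a1, the vitamin D hydroxylase whose level varied widely between these arrays, was set beside the 10 genes. It measured 5.31, 5.69, 10.08 and 9.97 on medulla replicates 1 to 4 and 5.42, 6.21, 10.18 and 10.65 on cortex replicates 1 to 4. On the replicate 3 arrays, where Cyp24a1 was high in both regions, Casr measured 8.15 in medulla, below medulla replicates 1 and 2, and 8.72 in cortex, its highest cortex value. The lowest Casr array of both regions was replicate 4. The injury gene Havcr1 measured 4.54, 4.80, 8.95 and 11.32 in medulla and 4.59, 5.15, 7.54 and 11.27 in cortex. Its highest array was replicate 4 in both regions.

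Other genes of these pathways were counted in lists, and limma called 0 of them between the regions. Of 10 measured genes listed for salt transport in the thick ascending limb, 7 reached a 2-fold range in both regions, beside 2.21% of all genes. The list also holds genes that are not salt transporters, among them Umod, Egf and Ptger3. The 7 include the markers Slc12a1, Umod and Kcnj1 given above. The median range of the list was 1.16 log2 units in medulla and 1.25 in cortex. Egf, the epidermal growth factor gene whose product stimulates magnesium uptake in the distal convoluted tubule, measured 10.51, 10.71, 10.21 and 8.45 in medulla and 10.48, 10.62, 10.81 and 9.07 in cortex. The potassium channel gene Kcnt1 measured 7.83, 7.54, 6.90 and 6.21 in medulla and 7.79, 7.06, 6.78 and 5.53 in cortex, and both were lowest on replicate 4. Ptger3, a prostaglandin receptor, had its highest values there, 9.65 in medulla and 9.06 in cortex.

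Of 11 measured genes of transcellular calcium transport and vitamin D, 4 reached 2-fold in both regions (Trpv5, Calb1, Slc8a1 and Cyp24a1). The share over all genes was 2.21%. Trpv5, the apical calcium channel of the distal nephron, measured 4.86, 6.59, 7.56 and 8.60 in medulla and 5.47, 6.53, 8.15 and 9.64 in cortex, highest on replicate 4 where Casr was lowest. Calb1, the calcium-binding calbindin, was instead highest on replicate 3 of both regions, at 10.47 in medulla and 10.98 in cortex. Of 13 measured genes of magnesium handling, 3 reached a 2-fold range in both regions (Egf, Kcnj10 and Slc12a3), beside the same 2.21%. Egf is counted in the thick ascending limb list as well. The distal potassium channel gene Kcnj10 stood at 5.23 and 5.29 on medulla and cortex replicate 4.

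The 2.21% of all genes with a 2-fold range in both regions stands beside the next counts. Of 15 other claudins, 1 reached 2-fold in both regions, and the median range was 0.29 log2 units in medulla and 0.30 in cortex. This was Cldn6, a claudin known mainly from embryonic epithelia, which measured 5.79, 5.91, 5.86 and 7.13 in medulla and 5.96, 6.10, 6.00 and 7.52 in cortex. Of 17 measured tight junction partners and regulators, 1 did so in medulla and in both regions and 3 in cortex, with median ranges of 0.41 and 0.53. The 1 was the kinase gene Wnk1, and the junction protein gene occludin (Ocln) came next, measuring 8.62, 8.41, 8.50 and 7.70 in medulla and 8.52, 8.14, 8.03 and 7.35 in cortex. Of 28 measured genes of Casr and Pth1r signalling, 1 did, with median ranges of 0.36 in medulla and 0.28 in cortex. It was Rcan1, an inhibitor of calcineurin that is itself switched on by calcineurin and NFAT, measuring 7.00, 7.39, 7.31 and 8.52 in medulla and 7.27, 7.44, 7.17 and 9.11 in cortex. Itpr1, the calcium release channel downstream of Casr, measured 7.48 and 7.37 on medulla and cortex replicate 4, the lowest array of each region.

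The genes most like a member across the arrays were ranked by Pearson r of the deviations from the regional means over the 8 arrays, as a description, since the replicate 4 arrays dominate it. For Casr they were Tpmt (r = 0.997), Iyd (0.994) and Lactb2 (0.994), and 596 genes had an r above 0.9. For Cldn10 they were Arhgap24 (r = 0.995), Ppm1k (0.994) and Nptn (0.992). For Cldn19 they were Rpl27al7 (r = 0.998), H1f5 (0.994) and Wdr54 (0.994), and for Cldn4 they were Hpx (r = 0.992), Sqle (0.987) and Myo9b (0.984). Without both replicate 4 arrays, over 6 arrays, r for these 12 genes lay between 0.873 and 0.987. The 12 genes were picked by r over arrays that include these 6, so this is no separate check of the likeness.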

How the data were processed

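Biotin-labelled targets made from kidney total RNA were hybridised to whole-transcript arrays. The authors deposited 1 linear intensity per probe set and array, processed, per the submitters' processing notes, by RMA in Affymetrix Expression Console, with versions not given in the sources used here. Values ran from 17.3 to 6229 and were taken to log2 with no pseudocount. Of 29870 probe sets, 18511 had 1 gene symbol, 575 several and 10784 none here. The brightest probe set was kept for each of 291 genes with several, giving 18166 genes, with no filter on dim genes. At most 1 value was identical between any 2 arrays. The regional test was limma's (version 3.58.1, R 4.3.3) moderated fit by lmFit and eBayes, with Benjamini-Hochberg adjustment over all genes, and genes were called at an adjusted p under 0.05 with at least 2-fold. The limma fit was tried on simulated data in which each gene varied independently. In the real arrays many genes lay apart together on replicate 4, so the simulation checked the working of the code only. Sequences come from RefSeq, GRCr8. Figures were drawn with matplotlib 3.10.9.

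The members and lists were chosen with earlier results of these data known. The members are always named, with Cyp24a1, Slc12a1, Umod and Havcr1, the 3 non-members of each list with the largest smaller regional range, and the 3 genes most like Casr and each member with a 2-fold range in both regions. Of each list the text gives those that illustrate it, and other genes it names were chosen after their values were seen. Alternatives were quantile normalization, median centring, the mean of probe sets, a filter on dim genes, each array left out, a trended robust prior, array weights, the adjusted p alone, limma's treat, and 1.5-fold and 3-fold ranges. Leaving out both replicate 4 arrays was added after the data were seen.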

Additional observations from a re-analysis of the deposited data

Results flagged for a closer look

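Of 20 sets of 4 arrays (10 genes in 2 regions), 5 held an array far from the others by Dixon's criterion, where chance flags about 1 in 20 groups. Over all genes the share was 6.45% in medulla and 7.88% in cortex. All 5 were replicate 4 arrays, and 4 of them were a single array, cortex replicate 4, so they are not separate observations. Casr stood at 6.48 log2 intensity on cortex replicate 4, a gap of 0.917 of its cortex range, and Cldn16 at 6.93 on the same array, with 0.926. Cldn4 stood high there at 8.07, with 0.945, and Cldn7 at 6.91, with 0.913. Cldn10 stood low at 8.42 on medulla replicate 4, with 0.872 of its medulla range.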

How the results depend on the processing

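No paired analysis was possible because the labels number the arrays 1 to 8 and share no number between the regions; the replicate numbers used here follow that order within a region and pair nothing. limma called 0 genes between the regions, and 0 of the 10 described here, under each alternative run, with smallest adjusted p-values over all genes from 0.0995 (without medulla replicate 2) to 1.0 (treat), beside 0.875 with all arrays. They were 0.467 without cortex replicate 1 and 0.576 with array weights, and for Cldn8 the adjusted p was 0.488 without medulla replicate 2. Of 159 differences of single genes under the alternatives, 7 turned sign, and the cause was not tested. With an array left out the difference lay between -0.71 and 0.31 for Casr, -0.12 and 0.021 for Cldn14, and -0.16 and 0.19 for Cldn16, against -0.17, -0.05 and 0.10 with all arrays. For Cldn16 it was -0.049 with array weights and -0.16 without both replicate 4 arrays. The genes with a 2-fold range numbered 0 to 5 in medulla, 0 to 5 in cortex and 0 to 4 in both regions with an array left out, and 0, 0 and 0 without both replicate 4 arrays. At 1.5-fold they numbered 7, 7 and 6, and at 3-fold they numbered 2 in medulla, 3 in cortex and 1, Casr, in both. The filter on dim genes removed Cldn14, for which it gave no value. Signal limits Cldn14, which lay below the array median throughout.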

Other observations

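Of the 10 genes, 3 lie next to another claudin in the order of protein-coding genes in the RefSeq table, with 0 such genes between them. Cldn4 lies beside Cldn3 on chromosome 12, and Cldn3 measured 6.78, 6.43, 6.42 and 6.79 in medulla and 6.53, 6.59, 6.51 and 6.63 in cortex. On replicate 4 of medulla and cortex Cldn4 was 8.02 and 8.07. Cldn16 lies beside Cldn1 on chromosome 11, and Cldn1 was highest on replicate 4 of both regions, at 6.98 in medulla and 6.74 in cortex, where Cldn16 was 7.81 and 6.93. Cldn8 lies beside Cldn17 on chromosome 11, and Cldn17 measured 5.01 to 5.27 in medulla and 5.07 to 5.40 in cortex, close to the array medians. The neighbouring claudins were set side by side after their values were seen, and no test was made.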
